A study of Homo sapiens with 6 samples.

Results

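The genes described here make, break down, carry and sense prostaglandins, above all prostaglandin E2. They were chosen as a list of 10 genes, PTGS1, PTGS2, PTGES, PTGES2, PTGES3, PLA2G4A, HPGD, PTGER2, PTGER4 and SLCO2A1, out of 19775 genes named on the array. All 19 probe sets annotated to 1 of these genes alone were taken, and all 10 genes had at least 1. The cells were NCI-H292, an established human line from a mucoepidermoid carcinoma of the lung. They were stably transfected either with CT45A1 fused to Venus, a fluorescent protein (the CT45A1 overexpression group), or with the Venus vector alone (the CT45A1 negative group), so both groups share Venus and the transfection. CT45A1 belongs to the cancer/testis antigens, whose transcription is normally found mainly in testis. Each group had 3 replicates on 1 array each, and the labels give no clone number, passage or promoter for the constructs. The labels do not say whether replicates came from separate cultures; if they did not, the spread behind each p-value is technical.

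Prostaglandin synthesis starts when a phospholipase A2 frees arachidonic acid from membrane lipids. A cyclooxygenase, PTGS1 or PTGS2, turns it into prostaglandin H2, and a terminal synthase such as PTGES then makes prostaglandin E2. The prostaglandin leaves the cell, acts on receptors such as PTGER2 and PTGER4, which raise cAMP, and is taken back up by SLCO2A1 and inactivated by HPGD. In airway epithelium PTGS2 is known as the inducible, short-lived transcript of the pair and PTGS1 as the more constant one, and PTGS2 is raised in many lung cancers.

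PTGS2, PTGS1 and PTGES are the 3 members that passed the test described further on, PTGS2 with lower signal and the other two with higher signal in the CT45A1 overexpression group. The sequence of 250 bases before each gene's start is shown because it sets the inducible cyclooxygenase beside the pair that moved the other way. The sequences are from RefSeq on GRCh38.p14, where 9 of the 10 members matched. PTGS2 lies on the minus strand (chr1:186680424-186680673), PTGS1 on the plus strand (chr9:122370283-122370532, the window at the first of its starts) and PTGES on the minus strand (chr9:129753043-129753292). Each is written 5′ to 3′ along the gene, and capitals mark matches, on either strand, to 6 motifs. A TATA box was searched as TATAAA, the core of a cAMP response element as TGACG and a C/EBP type site as TTNNGCAA. The GC box was searched as GGGCGG. For the E-box the letters used were CACGTG. The remaining motif, named by its own letters, was CCAAT.
PTGS2: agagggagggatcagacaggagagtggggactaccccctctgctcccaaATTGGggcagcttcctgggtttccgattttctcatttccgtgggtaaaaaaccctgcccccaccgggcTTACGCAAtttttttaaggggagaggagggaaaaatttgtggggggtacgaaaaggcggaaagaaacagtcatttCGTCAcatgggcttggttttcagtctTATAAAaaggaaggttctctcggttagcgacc
PTGS1: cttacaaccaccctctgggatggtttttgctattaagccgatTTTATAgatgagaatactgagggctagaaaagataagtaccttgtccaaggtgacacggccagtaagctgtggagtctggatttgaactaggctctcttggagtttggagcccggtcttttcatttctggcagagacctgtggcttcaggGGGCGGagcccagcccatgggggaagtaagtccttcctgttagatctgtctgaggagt
PTGES: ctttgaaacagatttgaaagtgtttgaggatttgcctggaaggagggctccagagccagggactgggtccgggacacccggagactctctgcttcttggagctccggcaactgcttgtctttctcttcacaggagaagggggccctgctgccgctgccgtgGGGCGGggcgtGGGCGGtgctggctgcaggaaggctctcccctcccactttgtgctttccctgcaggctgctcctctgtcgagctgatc

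The PTGS2 window held a TATA box starting 32 bases before the start, a reversed cAMP response element core at 58, a C/EBP type match at 133 and a reversed CCAAT at 201, and no GC box. The PTGES window held 2 GC boxes, at 89 and 78 bases before the start, and none of the other motifs. The PTGS1 window held 1 GC box at 58 and a reversed TATAAA at 208. No matches overlapped within these windows. Over all 35116 RefSeq windows of this length, the TATA box was found in 10.7%, the cAMP response element core in 21.2%, the C/EBP type in 9.05%, the GC box in 42.6% and the E-box in 6.34%, and CCAAT was found in 11240 windows. These are matches of letters, and binding was not measured.

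The values given are MAS5 signals, which are linear intensities. Every difference is one of log2 signals, the CT45A1 overexpression mean less the CT45A1 negative mean. Median signals per array ran from 79.2 to 83.3 in the overexpression group and from 72.6 to 75.6 in the negative group, a log2 shift of 0.145. Centring each array on its median would lower every difference by that amount, so differences and list medians between 0 and 0.145 would change sign. Signal at both CT45 probe sets, which 9 CT45 genes share, was 154 to 700.1 on the overexpression arrays and 1.95 to 36.3 on the negative ones. All 11 airway epithelial markers measured were above the array median on every array, with a summed signal of 86699 to 87743 against 88861 to 93118, without overlap, and 1 of them, the keratin KRT18, passed the test (-0.25, limma adjusted p = 0.0393, and -0.14 with adjusted p = 0.225 after quantile normalization). Of 9 leukocyte, 9 endothelial and 10 fibroblast markers, 3, 2 and 2 were above the median on at least 3 arrays. PTPRC, VWF and COL1A2, 1 marker of each kind and also named after their values were seen, were below it on all 6. LCP1, PECAM1 and ACTA2, named after their values were seen, were above it on all 6. So were CDH5 and FAP, the latter with signals of 846 to 1638. The summed endothelial signal was 481 to 573 with CT45A1 and 339 to 470.5 without it, and CDH5, above the median on all 6 arrays, differed by 0.79 (adjusted p = 0.112). The leukocyte and fibroblast sums overlapped between the groups, and their highest-ranked genes by p, CD14 and FAP, differed by 0.46 and 0.27 (adjusted p = 0.596 and 0.472). With the actin ratio described next in the fit, CD14 was at 2.24 and passed (adjusted p = 0.0461). On the actin control probe sets, the signal at the 3' end was 1.42 to 1.55 times that at the 5' end in the CT45A1 overexpression group and 1.64 to 1.91 times in the negative group. This ratio rises as RNA degrades, and it was used as a covariate in 1 alternative. Its values did not overlap between the groups, so with 6 arrays that fit cannot fully separate the ratio from the group. Differences from it are extrapolated and cannot be read as effects corrected for RNA quality. The part of the marker signals in the results was not tested.

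Of the 19 probe sets, 11 were bright enough to test, covering 7 genes, and 8 were not. HPGD, PTGER2 and SLCO2A1 had none that could be tested. A probe set was tested when its signal exceeded the array median on at least 3 of the 6 arrays. It is said to have passed when its limma p-value, adjusted over all 27618 probe sets tested, was under 0.05. At that threshold 2 probe sets, both of PTGS2, were lower with CT45A1, and 2, of PTGS1 and PTGES, were higher; 7 of the 11 had an unadjusted p under 0.05, against 5719 of the 27618. Across the array 3.23% of tested probe sets passed, 1.89% upward and 1.34% downward. Groups did not overlap at 3 member probe sets upward and 2 downward, against 15.2% and 11.4% of all tested, or 26.6% together. The median difference of the 11 was 0.053, against 0.033 over all tested. With each array centred on its own median, 387 probe sets of the array were higher and 2588 lower, in place of 522 and 370, and the median of all tested became -0.112, while the same 2 directions held for the 4 member probe sets.

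**Figure D1:**
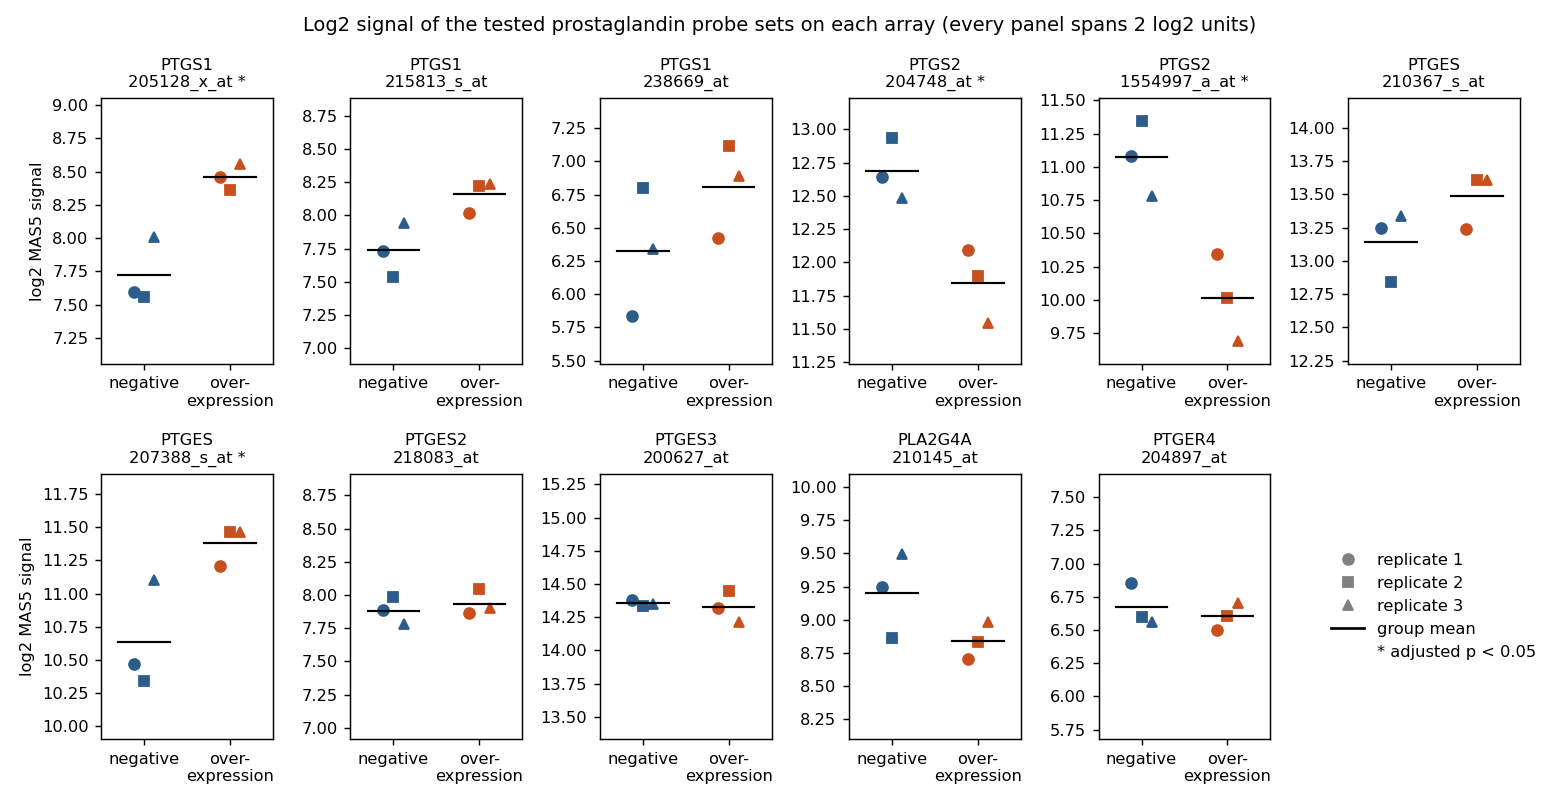
Log2 MAS5 signal (y axis) of the 11 tested probe sets on each array, by group (x axis), with bars at the group means and a symbol for each replicate number. Both PTGS2 panels show all 3 overexpression arrays below all 3 negative ones, and the panels of PTGES2, PTGES3 and PTGER4 show overlapping groups.

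PTGS2, the inducible cyclooxygenase, fell with CT45A1 at both of its probe sets, by 1.79-fold and 2.08-fold. At the brighter one (204748_at) the signals were 4372, 3813 and 2977 on overexpression replicates 1, 2 and 3. The negative replicates gave 6379, 7827 and 5729. The groups did not overlap, and the lowest negative array lay above the highest overexpression array. The log2 mean went from 12.69 ± 0.23 to 11.84 ± 0.28 (SD, n = 3 arrays), a difference of -0.84 (SE 0.14, 95% interval -1.16 to -0.53, limma adjusted p = 0.0155). At the dimmer one (1554997_a_at) the overexpression signals were 1299.6, 1032 and 826, and the negative ones 2173, 2605 and 1759. Here too every overexpression array was below every negative one. That difference was -1.06 (SE 0.17, 95% interval -1.44 to -0.68, limma adjusted p = 0.0134).

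The fall of PTGS2 kept its sign at both probe sets in every alternative run, with differences from -1.40 to -0.69 at the brighter one and from -1.77 to -0.89 at the dimmer one. With arrays centred on their medians the brighter one differed by -0.99 (adjusted p = 0.00323). It did not pass without overexpression replicate 2 (adjusted p = 0.0627), without negative replicate 1 (adjusted p = 0.0607) or without the variance trend in limma (adjusted p = 0.114). The dimmer one was also not past the threshold in those 3 settings, with an adjusted p of 0.0627, 0.0597 and 0.107. When the actin ratio entered the fit, the brighter one differed by -1.40 (SE 0.16, adjusted p = 0.0032) and the dimmer one by -1.77 (adjusted p = 0.00168).

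PTGS1, the constitutive cyclooxygenase, was higher with CT45A1 at each of its 3 tested probe sets, and rose past the threshold at 1. That one (205128_x_at) gave 352, 329.8 and 376 on the overexpression arrays and 193, 188 and 258 on the negative ones. The groups did not overlap, and negative replicate 3 was the nearest to the overexpression arrays. The log2 mean went from 7.72 ± 0.25 to 8.46 ± 0.09 (SD, n = 3), a difference of 0.74 (SE 0.16, 95% interval 0.38 to 1.10, limma adjusted p = 0.0393), or 1.67-fold. Its suffix, _x_at, marks a probe set whose probes can match other transcripts. The second (215813_s_at) gave 259.6, 298 and 301 against 213, 185 and 246, again without overlap. It differed by 0.42 (SE 0.16, limma adjusted p = 0.176), which did not pass. The third (238669_at) gave 85.6, 139 and 119 against 57.1, 111 and 80.9, and its groups overlapped (difference 0.48, SE 0.34, limma adjusted p = 0.445). The remaining one (205127_at) was dim, at 15.1, 10.2 and 6.99 against 4.70, 4.43 and 5.27, below the array median on all 6 arrays, and was not tested. All 4 thus had a higher mean with CT45A1.

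The PTGS1 call was lost in most runs with 1 array fewer, while its sign held. Leaving out any of the arrays except negative replicate 3 gave an adjusted p of 0.102 to 0.117, with differences of 0.66 to 0.79. Fewer probe sets of the whole array passed in those runs too, 156 to 447 in place of 892. Without negative replicate 3 the difference was 0.89 (adjusted p = 0.0172). It was 0.64 after quantile normalization (adjusted p = 0.0593), 0.55 as the mean of the 3 tested probe sets (adjusted p = 0.112) and 1.18 when the actin ratio entered the fit (adjusted p = 0.0474). The call was also lost without the variance trend (adjusted p = 0.101) and without the filter on dim probe sets (adjusted p = 0.0695).

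**Figure D2:**
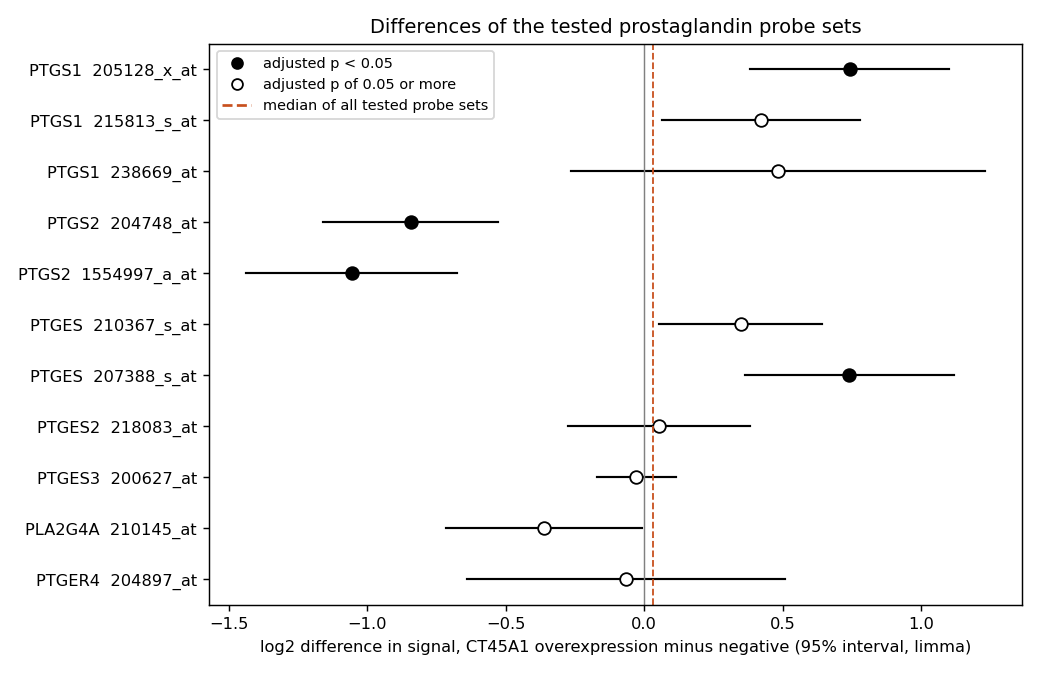
Log2 difference in signal between the groups (x axis) for each tested probe set (y axis), with 95% intervals from limma that are not adjusted for the number of tests, and filled points for an adjusted p under 0.05. PTGS2 lies at -0.84 and -1.06, while PTGS1 and PTGES lie above 0 at all of their tested probe sets.

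Of the prostaglandin E2 synthases, PTGES rose at 1 of 2 probe sets, and PTGES2 and PTGES3 did not pass. PTGES is the inducible, membrane-bound, glutathione-dependent synthase that is usually coupled to PTGS2. The probe set that passed (207388_s_at) gave 2363, 2821 and 2824 on the overexpression arrays and 1416, 1298 and 2202 on the negative ones. The groups did not overlap, and negative replicate 3 lay close to overexpression replicate 1. The log2 mean went from 10.64 ± 0.41 to 11.38 ± 0.15 (SD, n = 3), a difference of 0.74 (SE 0.17, 95% interval 0.36 to 1.12, limma adjusted p = 0.0455), or 1.67-fold. The brighter PTGES probe set (210367_s_at) gave 9695, 12504 and 12519.7 against 9715, 7336 and 10336.5. There overexpression replicate 1 lay among the negative arrays, and the difference of 0.35 (SE 0.13, 95% interval 0.05 to 0.64, limma adjusted p = 0.173) did not pass.

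The difference at 207388_s_at was 0.97 without negative replicate 3 (adjusted p = 0.00306). Without any other single array it was 0.59 to 0.82 and did not pass, with an adjusted p of 0.0896 to 0.160. It also missed the threshold with robust eBayes (adjusted p = 0.0649), without the filter (adjusted p = 0.0722) and without the variance trend (adjusted p = 0.171). When the actin ratio entered the fit it was 1.498 (adjusted p = 0.00146), and the brighter probe set, at 0.83 (adjusted p = 0.029), passed as well. The mean of both PTGES probe sets differed by 0.54 (adjusted p = 0.0905).

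PTGES2, a membrane-associated synthase found in the Golgi, gave signals of 233, 264 and 239 with CT45A1 and 236, 253 and 219.95 without it. The groups overlapped, and the difference was 0.05 (SE 0.15, 95% interval -0.28 to 0.38, limma adjusted p = 0.875). PTGES3, the cytosolic synthase better known as the HSP90 cochaperone p23, gave 20431, 22365 and 18985 against 21306, 20714 and 20852. Its difference was -0.03 (SE 0.06, 95% interval -0.17 to 0.11, limma adjusted p = 0.843). Its interval is the narrowest among the tested members, and that of PTGES2 still allows a rise of 0.38.

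PLA2G4A, the cytosolic phospholipase A2 that supplies arachidonic acid, had a lower mean with CT45A1 and did not pass. Signals were 417, 455 and 507 with CT45A1 and 607, 466 and 722 without it. Negative replicate 2 lay among the overexpression arrays. The difference was -0.36 (SE 0.16, 95% interval -0.71 to -0.01, limma adjusted p = 0.232). When the actin ratio entered the fit it was 0.22 (adjusted p = 0.631), on the other side of 0.

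The genes of uptake and breakdown were dim. SLCO2A1, the prostaglandin transporter that brings prostaglandin back into the cell, gave 42.3, 51.8 and 40.5 with CT45A1 and 68.3, 94.9 and 66.7 without it. The groups did not overlap, but 1 array, negative replicate 2, exceeded its array median, so the probe set was not tested and no fold is given. Without the filter on dim probe sets its difference of -0.76 had a limma adjusted p of 0.453. HPGD, 15-hydroxyprostaglandin dehydrogenase, which inactivates prostaglandin E2, was below the array median on all 6 arrays at all 4 of its probe sets, with signals from 2.01 to 52.6. Their differences ran from -1.30 to 1.12, and their limma adjusted p was 0.589 to 0.961 when the filter was left out. At 203913_s_at, the one with the lowest difference, the signals were 19.6, 3.22 and 22.1 against 22.5, 22.2 and 41.2. These values carry no statement on whether HPGD was transcribed.

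Of the receptors, PTGER4 could be tested and PTGER2 could not. PTGER4, the EP4 receptor, gave 90.7, 97.5 and 104 with CT45A1 and 115, 97.1 and 94.3 without it at its brighter probe set. The groups overlapped, and the difference was -0.07 (SE 0.26, 95% interval -0.64 to 0.51, limma adjusted p = 0.916), which leaves room for a change of up to 0.64 downward. Its other probe set was below the array median on all arrays, at 11.3, 8.35 and 8.18 against 19.8, 18.3 and 9.40. PTGER2, the EP2 receptor, was below the median on every array too, at 2.06, 24.6 and 31.0 against 18.8, 14.4 and 2.93, and the spread within each group was wider than the difference between them.

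The arrays fell into one order at both PTGS2 probe sets and into the reverse of it at 1 probe set each of PTGS1 and PTGES. From the highest to the lowest signal, both PTGS2 probe sets ran negative replicate 2, 1 and 3, then overexpression replicate 1, 2 and 3. PTGES at 207388_s_at and PTGS1 at 215813_s_at ran through the same 6 arrays in exactly the opposite order. At PTGS1 205128_x_at the only departure was that overexpression replicates 1 and 2 changed places. Negative replicate 3 was thus the negative array nearest to the overexpression group at these 5 of the 7 probe sets tested for the 3 genes. The other 2 did not follow that order, though negative replicate 3 was also the highest negative array at 1 of them, PTGES 210367_s_at. PTGES at 210367_s_at ran overexpression 3 and 2, negative 3 and 1, overexpression 1 and negative 2, and PTGS1 at 238669_at ran overexpression 2 and 3, negative 2, overexpression 1 and negative 3 and 1. This is a description of 6 arrays in 2 groups, which share the group difference, and it was looked for after the values were seen. Within each group, falling PTGS2 signal followed a rising actin ratio, array by array. In the order of falling PTGS2 that ratio was 1.64, 1.70 and 1.91 without CT45A1, then 1.42, 1.49 and 1.55 with it. Between the groups the direction was opposite, as ratio and PTGS2 were both lower with CT45A1. The part of RNA quality in the order was not tested.

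**Figure D3:**
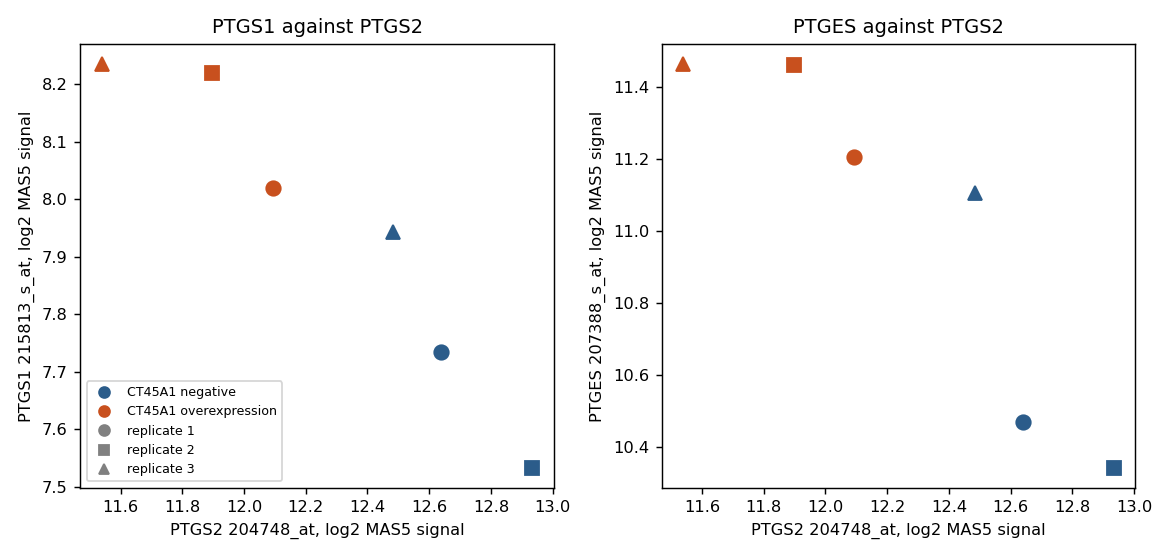
Log2 MAS5 signal of PTGS1 215813_s_at (left) and PTGES 207388_s_at (right) against that of PTGS2 204748_at (x axis), with 1 point per array, coloured by group and shaped by replicate number. The points descend from the overexpression arrays at upper left, where PTGS2 is 11.54 at its lowest, to negative replicate 2 at lower right, where PTGS2 is 12.93. Within each group, arrays with lower PTGS2 had a higher actin ratio.

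The genes whose brightest tested probe set followed PTGS2 most closely over the 6 arrays were EMP1, KCTD12 and FRAS1. Their Pearson correlations with PTGS2 on log2 signals were 0.995, 0.995 and 0.995. EMP1, an epithelial membrane protein, fell by 0.38 (SE 0.08, adjusted p = 0.0309), and KCTD12, an auxiliary subunit of GABA-B receptors, fell by 0.55 (SE 0.10, adjusted p = 0.0204). FRAS1, an extracellular matrix protein of epithelial basement membranes, differed by -0.28 (SE 0.10, adjusted p = 0.169), which did not pass. The correlations rest on 6 arrays of 2 groups that share the group difference, and they carry no test.

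**Figure D4:**
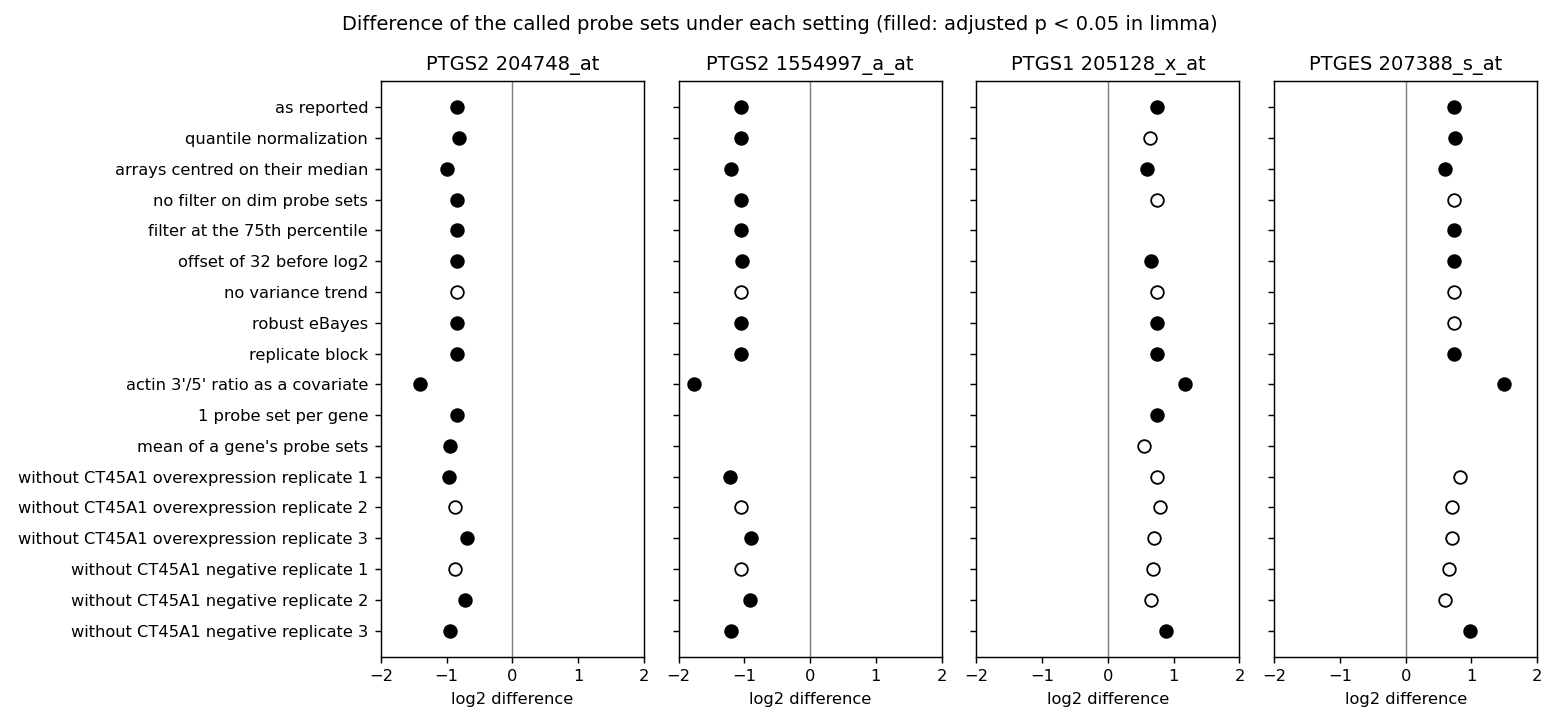
Log2 difference (x axis) of the 4 probe sets that passed, under each processing setting (y axis), with filled points for a limma adjusted p under 0.05 and no point where a setting does not include the probe set. All points of PTGS2 lie below 0 and all points of PTGS1 and PTGES above it, and open points mark the settings in which the threshold was missed.

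Of the other genes listed for prostanoid and arachidonate metabolism, 1 passed the test at the probe set used. Each gene was taken at its tested probe set with the highest mean signal, and of all 11895 genes so represented 3.46% passed, 1.77% upward and 1.70% downward, with a median difference of 0.008. All p-values of the lists are from the same limma fit. Among 10 tested genes listed with the other phospholipases A2 none passed (2 at an unadjusted p under 0.05), with a median of 0.037. The smallest p belonged to PAFAH1B1, a regulatory subunit, at -0.23 (adjusted p = 0.115). PAFAH1B1 passed at -0.37 after centring on array medians (adjusted p = 0.0210). Among 13 genes listed as other prostanoid synthases and reductases only CBR4, a mitochondrial carbonyl reductase, passed. It rose by 0.41 from 10.55 to 10.96 (SE 0.08, adjusted p = 0.0323), and its part in prostanoid metabolism was not examined. It was at 0.27 after centring and did not pass (adjusted p = 0.113). Its other probe sets differed by -0.01 and 0.17. The median of the list was -0.038, with values up to 1.17 at GSTM2, a glutathione transferase named after its value was seen (SE 0.62, adjusted p = 0.315). Of 8 other prostanoid receptors and transporters none passed (0 unadjusted), with 7 below 0 and a median of -0.045, and PTGDR2, a prostaglandin D2 receptor, differed by 0.54 (adjusted p = 0.318). None of 5 lipoxygenase and leukotriene genes passed (1 unadjusted, median 0.189). The smallest p among them was that of LTB4R, a leukotriene B4 receptor, at 0.55 (adjusted p = 0.125). None of 17 genes of arachidonate supply and re-esterification passed either (1 unadjusted, median 0.037), where MBOAT7, which returns arachidonate to phosphatidylinositol, differed by 0.22 (adjusted p = 0.223). The related glutathione transferases of the MAPEG family, 5 tested with PTGES among them, held none that passed at the brightest probe set (2 unadjusted, median -0.023). Over all 11895 genes, 2488 had an unadjusted p under 0.05.

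Genes known to respond to cAMP, the second messenger of PTGER2 and PTGER4, included 4 that rose and 1 that fell among 15 tested. Of 26 genes of cAMP signalling tested none passed (6 unadjusted), with a median of 0.040, and the protein kinase A subunit PRKACB differed by -0.22 (adjusted p = 0.108). After centring on array medians PRKACB differed by -0.37 and passed (adjusted p = 0.0170). Of the cAMP-responsive genes 12 of 15 lay above 0, beside 14 of the 26 signalling genes and 6146 of all 11895, and their median was 0.444. Both cAMP lists hold some of the same genes, so their counts are not separate. The calls compare with 1.77% upward and 1.70% downward over all genes. NR4A2, an orphan nuclear receptor, rose by 0.88 (SE 0.19, adjusted p = 0.038), with 0.76 and 0.90 at its other probe sets. Its signals were 1436, 1658 and 1726 on the overexpression arrays and 788, 669 and 1246 on the negative ones, with negative replicate 3 again nearest to the overexpression arrays. ATF3, a stress-induced transcription factor, rose by 0.87 (SE 0.09, adjusted p = 0.0026), and its other probe sets differed by 0.24 and 1.03. PPARGC1A, a coactivator of mitochondrial genes, rose by 0.80 (SE 0.17, adjusted p = 0.0328), and RGS2, an inhibitor of G protein signalling, fell by 0.58 (SE 0.07, adjusted p = 0.00504). The other gene that rose, SIK1, was named after its values were seen. This kinase rose by 0.34 (SE 0.08, adjusted p = 0.0425), and a near-identical copy of it in the genome could share its probes. NR4A3, also named after its values were seen, differed by 1.70 (SE 0.49, adjusted p = 0.0908), and its groups overlapped. These genes also respond to other signals, and cAMP was not measured.

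Among 14 regulators of PTGS2 mRNA stability tested, 2 fell and none rose, with 9 below 0 and a median of -0.129. Over all 11895 genes 1.77% passed upward and 1.70% downward, and 5749 lay below 0. CELF2, an RNA-binding protein reported to stabilise PTGS2 mRNA and hold back its translation, fell by 0.54 from 9.36 to 8.82 (SE 0.12, adjusted p = 0.0422), and its 3 other probe sets differed by -0.64 to -0.31. ZFP36L2, which promotes decay of AU-rich mRNAs, fell by 0.29 (SE 0.07, adjusted p = 0.0451), with -0.12 at its other probe set. ZFP36, a destabiliser of such mRNAs, and ELAVL1, a stabiliser, were at 0.08 and -0.05 (adjusted p = 0.770 and 0.732), a pair singled out with its values in view. The other probe sets of ELAVL1 were at 0.18 and 0.63 (adjusted p = 0.636 and 0.0507). Among 12 regulators of cytosolic phospholipase A2 and annexins, 1 rose and 2 fell, with 9 below 0 and a median of -0.199. MAPK3, the kinase ERK1, rose by 0.72 (SE 0.16, adjusted p = 0.0441). Its only tested probe set is an _x_at one, whose probes can match other transcripts. The probe sets used for NR4A2, GSTM2, KRT18 and ANXA2 carry that suffix too. PLAA, a phospholipase A2 activating protein, fell by 0.60 (SE 0.12, adjusted p = 0.0262), with -0.43 and -0.00 at its other probe sets. ANXA2, a phospholipid-binding annexin, fell by 0.24 (SE 0.05, adjusted p = 0.0336), with -0.42 to -0.19 at its other probe sets, and was at -0.12 after quantile normalization (adjusted p = 0.159). Of 16 HSP90 cochaperones and partners of PTGES3, 2 rose and none fell, with a median of 0.032. CDC37, which brings kinases to HSP90, rose by 0.67 (SE 0.11, adjusted p = 0.0143), and HSPA4, a nucleotide exchange factor, rose by 0.28 (SE 0.06, adjusted p = 0.0435), with -0.01 to 0.25 at its other probe sets, and was at 0.13 after centring (adjusted p = 0.232).

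The list calls differed in how often they held. ATF3 passed in 16 of 17 alternatives, RGS2 in 15 and CDC37 in 14. PLAA passed in 10 of 17, NR4A2 and PPARGC1A in 9, CELF2 and ANXA2 in 8, CBR4 and HSPA4 in 7 and ZFP36L2 in 6, and MAPK3 passed in 6 of 16. After centring on array medians, 4 list genes were higher and 25 lower, in place of 8 and 5, so the balance of rises and falls over the lists turned with the scaling. Probe sets of list genes other than the brightest also passed for genes that had not, and these were named after their values were seen. Over all lists, 12 of the 197 tested probe sets other than the brightest passed, PTGS2 and PTGES included, beside 3.23% of all tested. PTGFRN, a negative regulator of the prostaglandin F receptor, was at 0.42 (adjusted p = 0.0247) at that other probe set and at -0.05 at its brightest. DAGLB, a diacylglycerol lipase, was at 0.62 (adjusted p = 0.0425) beside 0.33. PRKAR1A, a regulatory subunit of protein kinase A, was at 0.58 (adjusted p = 0.00512) beside -0.12. The RNA-binding proteins RBM3 and TIAL1 were at -1.17 and -0.55 (adjusted p = 0.0336 and 0.0155), beside -0.08 and -0.20 at their brightest. HSP90AB1, an HSP90, was at 0.27 (adjusted p = 0.0411) beside 0.11. PDE7A, a cAMP phosphodiesterase, gave 14.3, 14.7 and 12.5 on the overexpression arrays, below the array median, and 82.8, 117 and 107 on the negative ones. It was at least 1.24-fold lower there (adjusted p = 0.0283), beside -0.09 at its brightest probe set. The dim PDE7A probe set met the brightness filter only through the negative arrays, where it is high. Its p-value is therefore not independent of that filter. Probe sets of 1 gene can target different transcripts, and which of them a value stands for was not examined.

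**Figure D5:**
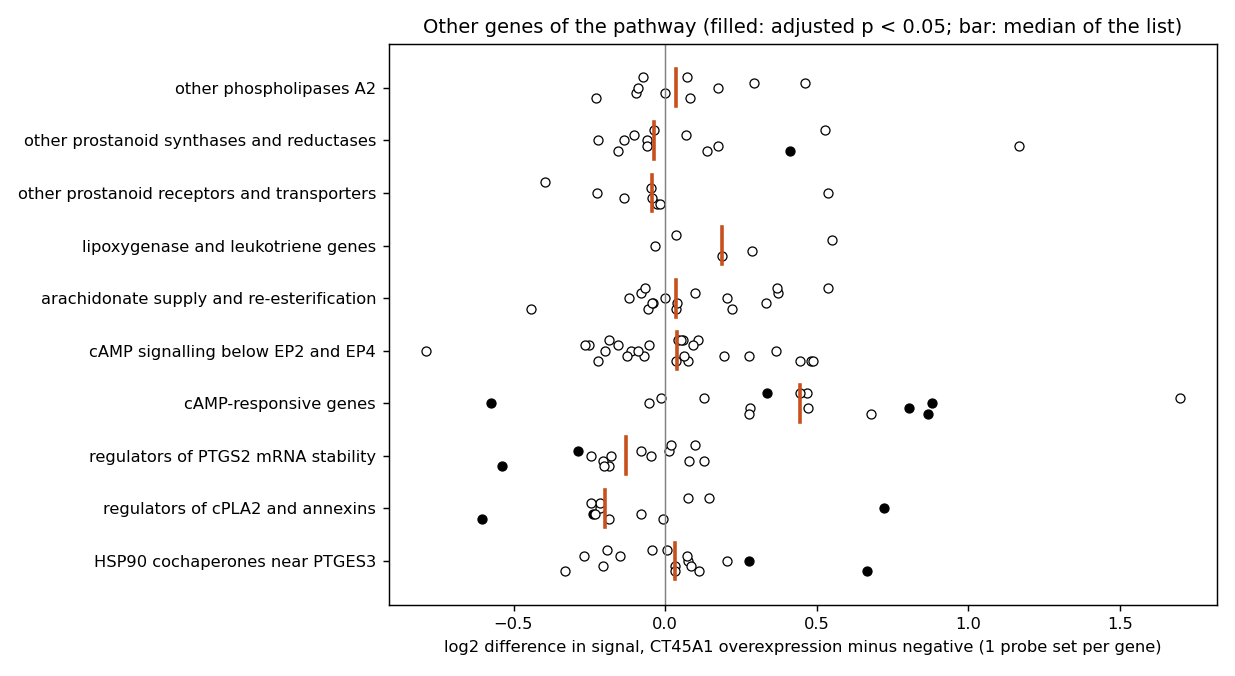
Log2 difference (x axis) of each tested gene of 10 lists (y axis), 1 probe set per gene, with filled points for an adjusted p under 0.05 and a bar at the median of the list. The bar of the cAMP-responsive genes lies at 0.444, and those of the phospholipases, synthases and cAMP signalling genes lie within 0.04 of 0.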

How the data were processed

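Total RNA was amplified and labelled for 3' arrays (labels' protocols). Each deposited value is a linear intensity signal of 1 probe set; the submitters' processing notes name MAS5 and affy, and no version of either is given in the sources used here. Their trimmed mean was 500.1 on every array, so arrays had been scaled to a common mean. Signals were taken to log2, and 62 control probe sets were left out. Groups and replicate numbers came from the titles. All tests were two-sided, fitted with limma 3.58.1 (lmFit, eBayes with a variance trend) in R 4.3.3, and adjusted by Benjamini-Hochberg over the 27618 probe sets kept. Of 54613 probe sets, 41091 had 1 gene symbol in the platform annotation and were named, updated through RefSeq, while 1801 had several symbols and 11721 none. Detection calls were not used here.

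The members, lists and tests were chosen with earlier results of these data known. The text names all members, up to 4 genes of each other list with the largest differences among those that passed (the smallest p where none did), and the 3 genes most correlated with PTGS2. Any other gene is said to be named after its values were seen. Alternatives were other normalizations, filters, an offset, variance models, the replicate number as a block, the actin ratio as a covariate, 1 value per gene and leaving out each array. Figures were drawn with matplotlib 3.10.9 in Python 3.11.15. The number of arrays limits the precision.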

Additional observations from a re-analysis of the deposited data

How the results depend on the processing

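Without the variance trend 4 probe sets of the array passed in limma, 0 of them members and 0 pathway list genes (5042, 5 and 30 at an unadjusted p under 0.05), and PTGS2 differed by -0.84 without passing. Without the filter on dim probe sets 486 of the array, 2 member probe sets and 5 pathway genes passed. Centring arrays on their medians gave 2975 and 29 pathway genes (4 higher, 25 lower), against 892 and 13 (8 higher, 5 lower) as reported, and 4 member probe sets in both. Fitting 1 probe set per gene gave 457 genes, 2 of them members, and averaging the probe sets of each gene gave 338, with 1 member and 7 pathway genes, where fewer features were tested. Leaving out 1 array gave 156 to 1152 probe sets, 0 to 4 member probe sets, 3 to 12 pathway genes and a PTGS2 difference of -0.97 to -0.69. The counts of 0 members came without overexpression replicate 2 (4 unadjusted) and without negative replicate 1 (6 unadjusted).

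Signs changed only at values that had not passed. PTGES2 was at -0.0561 after quantile normalization, -0.0919 after centring and -0.0811 with the actin ratio, and at -0.00208 to 0.103 with 1 array left out. PTGES3 was at 0.0482 after quantile normalization and at -0.0895 to 0.0287 with 1 array left out. PLA2G4A was at 0.216 and FAP at -0.613 with the actin ratio, where CD14 passed at 2.24 (adjusted p = 0.0461). Leaving out 1 array put PTGER4 at -0.121 to 0.0244 and CD14 at -0.0907 to 0.882. The cause was not tested. With the replicate block 1189 probe sets of the array and 4 member probe sets passed, and PTGS2 differed by -0.84 (adjusted p = 0.00227). Deviations of same-numbered arrays correlated at -0.01, -0.01 and 0.10, and those of differently numbered arrays at -0.10 to 0.11. The labels do not say whether the numbers pair the arrays, and these few values do not settle it. Dim signals limit what HPGD, PTGER2 and SLCO2A1 can show.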

Other observations

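The promoter windows of the members differed in their motifs. Over the 13 RefSeq windows of 9 members, the GC box was found in 10, the cAMP response element core in 4, CCAAT in 3, TATAAA in 2, and the C/EBP type and the E-box in 1 each. The C/EBP type match was that of PTGS2, and the E-box was in a window of PTGES2. Windows of 1 gene can overlap, and these are counts of letters with no test.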
